A study of Mus musculus with 13 samples.

Results

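The 10 genes described here are stress-response genes of the mouse that cells can switch on within minutes to hours. They comprise 7 immediate-early genes (Fos, Fosb, Jun, Junb, Egr1, Ier2 and Atf3) and 3 heat-shock genes (Hspa1a, Hspa1b and Dnajb1). They were taken by symbol from a deposited table of 30479 genes, where all 10 have a row, and followed over its 13 libraries. The libraries came from mice at postnatal day 25 that were wild type (WT), heterozygous (Het) or knockout (KO) for Wfdc15a, a gene of the WAP four-disulfide core family whose role in spermatogenesis the study addressed. Intact testis without its capsule gave 2 WT, 1 Het and 3 KO libraries, each from about 2 ng of total RNA. Round spermatids, the haploid cells that follow meiosis, gave 2 WT, 2 Het and 3 KO libraries of 100 to 200 cells each, sorted by flow cytometry after staining DNA with Vybrant DyeCycle Green. All libraries were made by Smart-seq2, which copies polyadenylated RNA and does not keep the strand. The labels name no strain, do not describe the Wfdc15a allele, and leave unsaid whether a group's libraries came from separate animals. The p-values therefore reflect only how these samples vary, which may be technical variation.

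Immediate-early genes respond to growth factors, calcium, mechanical damage and other signals through transcription factors that are already present, among them SRF with its ELK partners, CREB and ATF2, and so need no new protein synthesis. Fos and Jun family proteins pair to form AP-1, which then acts on slower genes. Heat-shock genes are switched on by heat-shock factors, chiefly HSF1, when unfolded proteins accumulate. HSP70 proteins bind unfolded chains, and DNAJ proteins such as DNAJB1 deliver these chains and stimulate the HSP70 ATPase. In tissue that is dissociated and sorted, both families are widely used as signs of handling, and male germ cells are also known for HSP70 and DNAJ relatives of their own.

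Levels are given as RPM, the reads of a gene scaled to a common library total, and totals ran from 7375270 to 20927428 reads per library. Where a gene had no read, counting error alone allows a level of 3 reads, which is 0.143 to 0.407 RPM depending on the library. Wfdc15a itself had reads in every library, at 207 to 267 RPM in WT, 48.4 to 71.5 RPM for Het, and 36.8 to 116 RPM in KO. The libraries did not separate first by genotype. On the leading principal component, computed without the stress, regulator and chaperone genes, both WT libraries and KO replicate 1 (6 samples over the cell types, called set 1) stood apart from the Het libraries and KO replicates 2 and 3 (7 samples, called set 2). Its share of the variance was 71.6% among testis libraries and 55.5% among sorted ones. No label records a batch, no WT library is in set 2 and no Het library is in set 1, so WT and Het cannot be told apart from the sets. Round spermatid markers were present in the sorted cells, and none of the 21 was without reads there or in testis. Their sum was 5591 to 5757 RPM in sorted samples of set 1 and 4455 to 5025 RPM in those of set 2. In testis it was 3519 to 5622 and 2345 to 2552 RPM, so the ranges overlapped in set 1. The presence of these markers therefore does not tell sorted cells from tissue. Summed spermatocyte markers were also high in the sorted samples, at 3825 to 4794 RPM in set 1 and 5005 to 5365 RPM in set 2. In testis the spermatocyte sums were 2878 to 3711 and 5154 to 5480 RPM. The purity of the sorted cells was not tested. The 4 sorted samples of set 2 also held Dcn, a proteoglycan of stromal cells, at 177 to 299 RPM, against at most 0.478 RPM in the 3 of set 1.

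Dnajb1 was the one member that was abundant in every library, at 120 RPM or more. Of the 117 values of the other 9 members, 81 were under 1 RPM, 33 were without a read and 2 were above 10 RPM. Those 2 values, of Fos and Egr1, came from a single library, testis KO replicate 1. Of the 10 members, 6 had a lower median in round spermatids than in testis, 3 had a higher one (Atf3, Hspa1a and Dnajb1) and Fosb had a median of 0 in both. The highest library was a testis library for 9 members and a round spermatid library for Atf3.

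Hspa1a and Hspa1b encode the stress-inducible HSP70 protein and are single-exon neighbours on chromosome 17 of mm10, at 34969190 to 34972156 and 34956436 to 34959238, both on the minus strand. Their transcripts are nearly alike: 1716 of 2918 windows of 50 bases in Hspa1a (58.8%) occur unchanged in Hspa1b, where they make up 62.3%. Reads from these windows cannot be assigned to one copy, so their separate values are uncertain. Their promoters differ as little, and are shown because the copies also share an exact match to a heat-shock factor motif. No exact match was found in the windows searched for the remaining heat-shock member, Dnajb1. The 150 bases before each transcription start, 5′ to 3′ on the gene's strand, are from RefSeq on GRCm38.p6, which held promoters for 8 of the 10 members. Capitals mark GAANNTTC, the core of a heat-shock element with 2 units.

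Hspa1a, chr17:34972157-34972306, minus strand: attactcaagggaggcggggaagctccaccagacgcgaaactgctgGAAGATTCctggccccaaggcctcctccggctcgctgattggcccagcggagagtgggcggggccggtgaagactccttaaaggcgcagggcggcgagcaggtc
Hspa1b, chr17:34959239-34959388, minus strand: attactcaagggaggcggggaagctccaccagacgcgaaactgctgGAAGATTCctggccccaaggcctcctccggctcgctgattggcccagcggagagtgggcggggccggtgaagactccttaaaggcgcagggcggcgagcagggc
Dnajb1, chr8:83608025-83608174, plus strand: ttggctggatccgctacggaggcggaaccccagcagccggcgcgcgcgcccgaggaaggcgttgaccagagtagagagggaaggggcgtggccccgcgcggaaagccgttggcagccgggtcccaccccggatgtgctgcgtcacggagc

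The promoters of the pair differ at 1 of these 150 positions and at 3 of 250. Both carry the motif as GAAGATTC, which starts 104 bases before the transcription start. Over 250 bases and both strands, GAANNTTC or TTCNNGAA was found in 12.8% of 32851 mouse promoters. Among the members it was also in Jun, as GAATCTTC at -128, and in neither Dnajb1 promoter. The longer element with 3 units, present in 0.466% of promoters, was in none of the 8 members with a promoter entry, which leaves out Ier2 and Egr1. CCAAT, present in 33.8% of all promoters, was found for Hspa1a, Hspa1b, Dnajb1, Jun and Junb, and TATAAA (12.4% of all) for Fos. The CArG box bound by SRF (1.47% of all), the cyclic AMP element TGACGTCA (1.55%) and the AP-1 site TGANTCA (6.75%) had no match in the windows searched. These exact matches describe letters, not binding, and imperfect or more distant elements would not have been found.

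Both HSP70 copies were close to the detection limit. Hspa1a was at 0.271 RPM and no read in WT testis, 0.288 RPM in the Het library and no read, 0.785 RPM and no read in KO replicates 1 to 3. In sorted cells it had no read in either WT library, 0.266 RPM and no read in Het, and 0.382, 0.176 and 0.284 RPM in KO. No library had more than 10 reads of it, and an overlapping gene on the other strand, Gm20481, reached 0.706 RPM, from which it cannot be separated without strand. For Hspa1b the testis values were 0.868 RPM and no read in WT, 0.384 RPM for Het, and 0.136, 1.49 and 0.570 RPM in KO. Sorted WT cells held 0.117 and 0.0981 RPM, Het cells 0.266 and 0.0924 RPM and KO cells 0.0956, 0.234 and 0.426 RPM. For both copies the highest library was testis KO replicate 2. Neither copy reached 1 RPM in 2 libraries, so neither was tested, and differences between groups were not detectable at this depth.

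Other HSP70 and DNAJ genes were abundant in the same libraries. Scaled by exon length, the median of Hspa1a was 0.0457 RPM per kb in testis and 0.0592 in round spermatids, and that of Hspa1b was 0.170 and 0.0417. Hspa2, the HSP70 of meiotic and postmeiotic germ cells, had medians of 262 and 352 RPM per kb, and Hspa1l, a spermatid relative beside the inducible pair, 2.1 and 4.5. Hspa8, the constitutive HSP70 of most cells, had medians of 46.8 and 23.7 RPM per kb, and Hspa5, the HSP70 of the endoplasmic reticulum, 123 and 202. Dnajb1 stood at 75.1 and 79.3 RPM per kb, below Dnajb3 (319 and 376), which is expressed in germ cells, and near Dnajb6 (83.8 and 110). These relatives, apart from Dnajb6, were chosen after their values were seen.

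**Figure D1:**
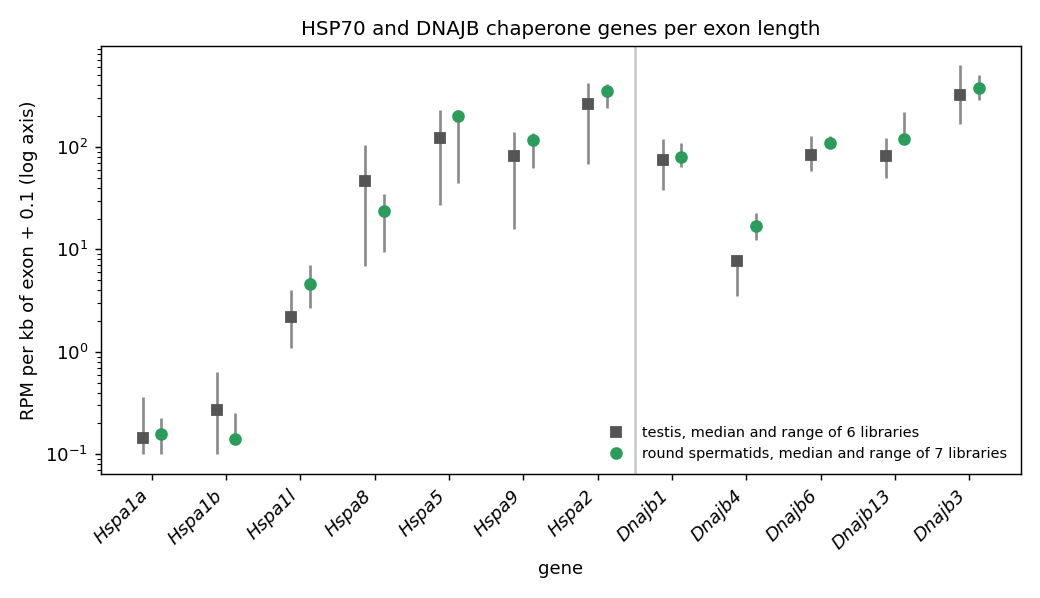
RPM per kb of exon plus 0.1, on a log axis, for 7 HSP70 genes (left) and 5 DNAJB genes (right); squares are medians of 6 testis libraries, circles medians of 7 round spermatid libraries, and bars their ranges. Hspa1a and Hspa1b lie at the bottom of the axis while Dnajb1 lies among the abundant DNAJB genes, with medians of 75.1 and 79.3 RPM per kb.

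Dnajb1 has 3 exons on the plus strand of chromosome 8, from 83608193 to 83612653. The WT testis libraries held 339 and 383 RPM, the Het library 120 RPM and KO replicates 1 to 3 held 326, 143 and 155 RPM. Sorted WT cells held 328 and 353 RPM, Het cells 229 and 204 RPM and KO cells 298, 254 and 247 RPM. In each cell type every sample of set 1 was above every sample of set 2, and the KO library that was high was replicate 1. The mean of set 1 was 2.51 times that of set 2 in testis (349 against 139 RPM) and 1.40 times in round spermatids (326 against 233 RPM). Ordered by mean, the groups were WT testis (361 ± 30.7 RPM, SD, n = 2), WT round spermatids (340 ± 17.7, n = 2), KO round spermatids (266 ± 27.4, n = 3), Het round spermatids (217 ± 18.2, n = 2), KO testis (208 ± 102, n = 3) and the Het testis library (120 RPM). The first pair overlapped in range, as did Het round spermatids and KO testis, and the other neighbours did not.

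**Figure D2:**
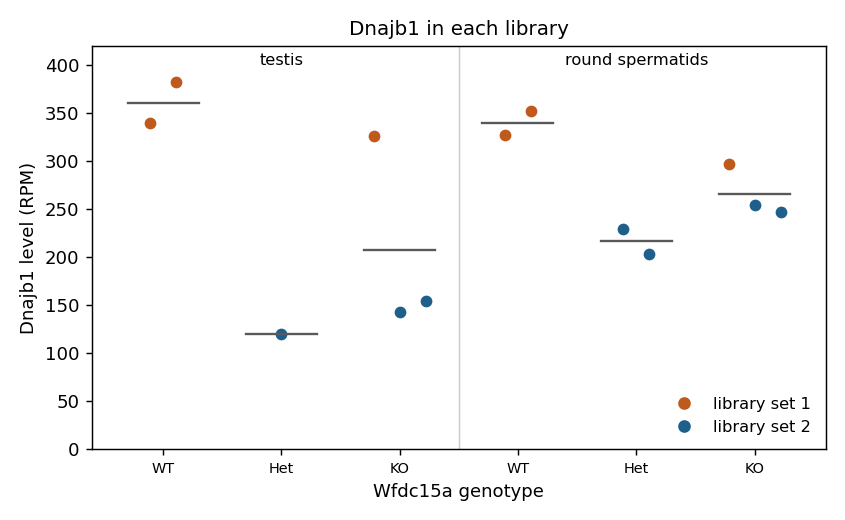
Dnajb1 in RPM (vertical axis) for each library by cell type and Wfdc15a genotype; points are libraries, coloured by library set, and lines are group means. The 3 testis samples of set 1 sit between 326 and 383 RPM and the 3 of set 2 between 120 and 155 RPM, and in round spermatids the ranges are 298 to 353 and 204 to 254 RPM.

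Fos, the leading partner of JUN in AP-1, lies on the plus strand of chromosome 12 at 85473890 to 85477273. In testis it was at 0.488 RPM and no read in WT, 1.54 RPM for Het, and 16.3, 0.942 and 0.190 RPM in KO replicates 1 to 3. The sorted cells had 0.0584 RPM and no read in WT, 1.20 and 0.369 RPM for Het, and no read, 3.22 and 2.13 RPM in KO. KO replicate 1 was thus the highest KO library in testis, with 120 reads, and the lowest in round spermatids, with none. Fosb, a close paralogue on chromosome 7 at 19302696 to 19310051 on the minus strand, had 6 reads in all, 4 in the Het testis library and 2 in round spermatid KO replicate 2.

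Jun, which encodes the partner of FOS in AP-1, is a single-exon gene on the minus strand of chromosome 4 at 95049034 to 95052222. WT testis held 1.57 and 0.634 RPM, Het testis 3.65 RPM, and the KO testis libraries no read, 7.69 and 9.37 RPM in the order of their numbers. WT round spermatids held 1.05 and 0.441 RPM, those of Het 2.13 and 3.97 RPM and those of KO 0.669, 1.58 and 2.41 RPM. Here the KO library without a read, testis replicate 1, was the one with the most Fos. The antisense gene Junos overlaps Jun and reached 7.67 RPM, so reads of the pair cannot be told apart without strand.

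Junb, an AP-1 subunit that can restrain JUN, lies on the minus strand of chromosome 8 at 84976910 to 84978718. Its testis values were 0.108 RPM and no read in WT, 0.480 RPM for Het, and 1.63, 1.88 and 1.08 RPM in KO, where all KO libraries were above WT. In sorted cells it had no read and 0.196 RPM in WT, 1.13 and 0.185 RPM for Het, and no read, 0.527 and 0.710 RPM in KO, and the genotypes overlapped. Atf3, a repressor of the same bZIP class that many stresses induce, spans 191170296 to 191218039 on the minus strand of chromosome 1. It was at 1.19 RPM and no read in WT testis, 0.384 RPM for Het, and 0.271, 0.314 and 0.507 RPM in KO. Sorted WT cells held 0.643 and 0.490 RPM, Het cells no read and 1.48 RPM and KO cells no read, 1.05 and 1.28 RPM. Genotypes overlapped in both cell types, and Atf3 was the immediate-early member with the higher median in sorted cells.

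Egr1, a zinc-finger factor induced through SRF, lies on the plus strand of chromosome 18 at 34859823 to 34864984. Testis values were 0.542 RPM and no read in WT, 3.65 RPM for Het, and 17.6, 2.51 and 3.42 RPM in KO, all KO libraries above WT. Round spermatids had no read and 0.294 RPM in WT, 1.86 and 1.39 RPM for Het, and 0.573, 1.11 and 1.21 RPM in KO, again without overlap between WT and the other genotypes. Ier2, a nuclear protein of the early response, is a single-exon gene on the minus strand of chromosome 8 at 84661331 to 84662854. It was at no read and 0.127 RPM in WT testis, 2.40 RPM for Het, and 1.90, 3.14 and 3.29 RPM in KO. In sorted cells the values were no read and 0.196 RPM in WT, 0.799 and 0.185 RPM for Het, and no read, 0.937 and 2.27 RPM in KO. The lowest KO value of both genes in round spermatids was that of replicate 1.

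**Figure D3:**
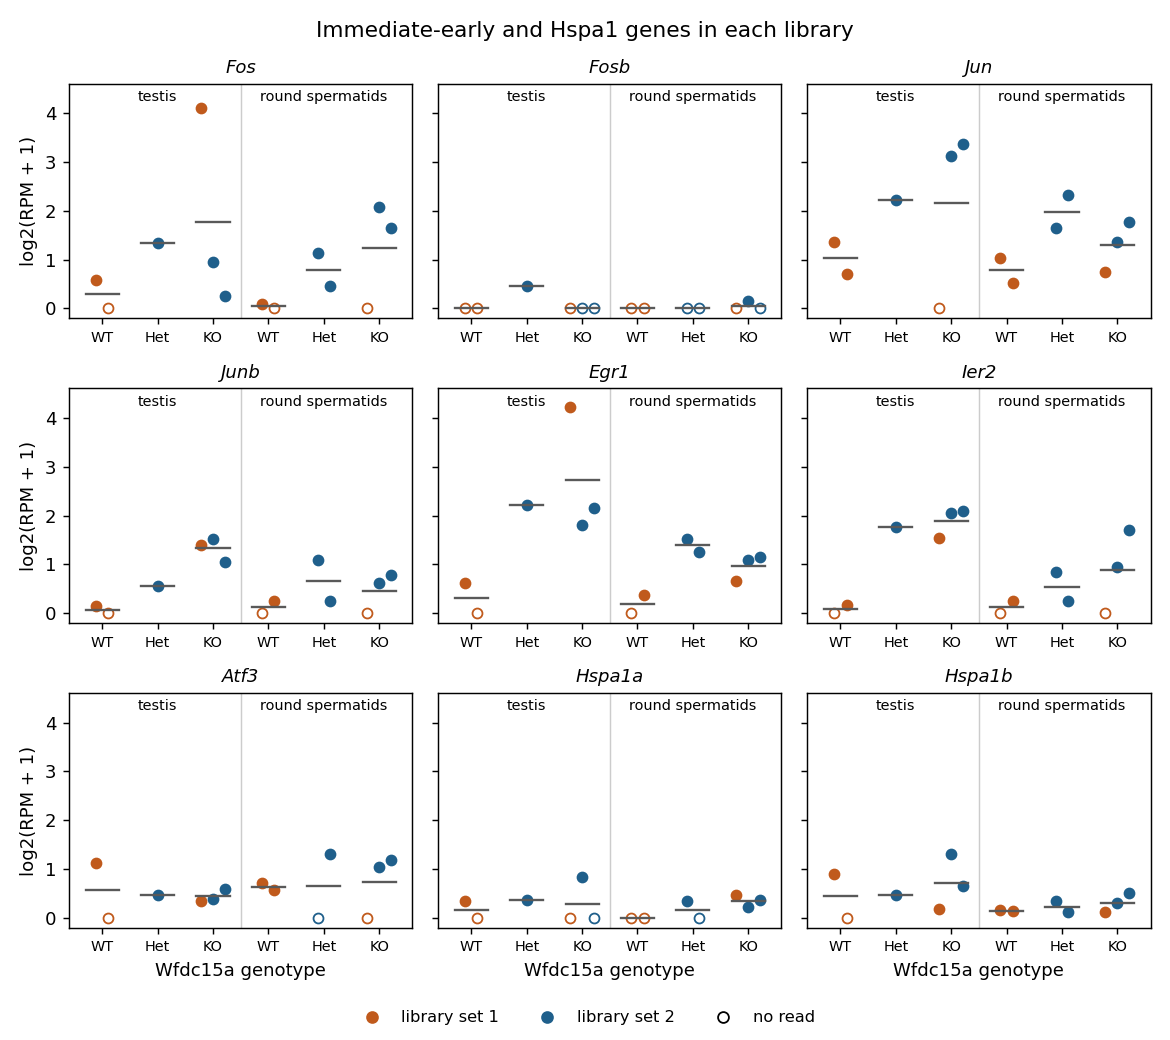
Log2(RPM + 1) of the 9 members other than Dnajb1 in each library, by cell type and Wfdc15a genotype; filled points are libraries coloured by set, open points libraries without a read, and lines group means. Testis KO replicate 1 is highest for Fos (16.3 RPM) and Egr1 (17.6 RPM) and without a read for Jun, and in round spermatids the set 2 points lie above set 1 for Egr1 and Jun.

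Summed over the 7 immediate-early members, round spermatid samples of set 1 held 1.24 to 1.75 RPM and those of set 2 held 7.13 to 10.01 RPM. In testis the sums were 12.5 to 17.9 RPM in set 2, and in set 1 they were 3.90 and 0.760 RPM in WT and 37.7 RPM in KO replicate 1. Markers of several cell types moved with the same division, Sertoli, stromal and myoid ones among them. Summed stromal and myoid markers were at 117 to 151 RPM in sorted samples of set 1 and 572 to 1159 RPM in those of set 2, and Sertoli cell markers at 9.84 to 19.4 and 122 to 298 RPM. In testis the Sertoli cell sums were 38.6 to 97.1 RPM in set 1 and 2242 to 2530 RPM in set 2, and the stromal and myoid sums 89.5 to 427 and 984 to 1507 RPM. Of 17 Sertoli cell markers, 4 to 5 had no read in sorted samples of set 1 and 0 to 2 in those of set 2; of 14 stromal and myoid markers, 3 to 5 and 0 to 1 had none. Summed macrophage and leukocyte markers also divided by set in sorted samples (902 to 953 against 1168 to 1244 RPM). Ptprc, a leukocyte marker of that list, did not (0.0956 to 4.85 and 0 to 6.19 RPM), so other genes of the list made up most of the sum. In testis samples of set 1 the sum was lower than in sorted ones, at 522 to 556 RPM. The sums of Leydig cell (69.3 to 93.3 and 92.6 to 139 RPM), endothelial (6.36 to 17.5 and 4.98 to 16.8 RPM) and erythroid markers (0.589 to 3.58 and 0 to 1.93 RPM) overlapped between the sets in sorted samples. The part of these cells in the levels of the members was not tested. In such RNA, fewer cells of a type and less RNA per cell cannot be told apart.

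In whole testis the KO libraries had higher means than WT for the 5 immediate-early members that entered the fit and a lower mean for Dnajb1, but none of the 6 passed the test. The test was limma's linear model on log2(RPM + 1), with p-values adjusted over all genes that had at least 1 RPM in 2 libraries and a threshold of 0.05. It called 0.0% of 18570 genes, with 4380 at an unadjusted p under 0.05, and the count by voom was 0. Junb, Egr1 and Ier2 were the 3 members at an unadjusted p under 0.05. KO minus WT for Egr1 was 2.41 on that log2 scale (SE 0.92, limma adjusted p = 0.183, higher in 3 of 3 KO libraries), and for Ier2 it was 1.81 (SE 0.53, limma adjusted p = 0.116, 3 of 3). Junb was at 1.25 (SE 0.42, adjusted p = 0.145), Fos at 1.49 (SE 1.17, adjusted p = 0.450), Jun at 1.13 (SE 1.15, adjusted p = 0.553) and Dnajb1 at -0.90 (SE 0.43, adjusted p = 0.268) in the same limma fit. The median of all genes stood at 0.63, and relative to it Egr1 was at 1.78, Ier2 at 1.18 and Dnajb1 at -1.53. KO and WT did not overlap for Junb, Egr1 and Ier2 (higher, as for 28.2% of genes tested) nor for Dnajb1 (lower, as for 14.1%).

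The testis difference rested on how KO replicate 1 was treated. Without it, 5 of 5 members in the fit passed by limma: Jun 2.21 (SE 0.41, adjusted p = 0.00299), Ier2 1.99 (adjusted p = 0.00214), Egr1 1.67 (adjusted p = 0.00860) and Junb 1.22 (adjusted p = 0.0172) were higher, and Dnajb1 was lower at -1.27 (SE 0.14, adjusted p = 0.000351). So did 11976 of 18378 genes, and KO and WT then lie in different sets. With the set as a covariate, which compares KO replicate 1 alone with WT and assumes that this lone library varies like the replicates of the other groups, 4 of 6 members were higher by limma, Egr1 by 3.91 (adjusted p = 0.00219), Fos by 3.82 (adjusted p = 0.00258), Ier2 by 1.45 (adjusted p = 0.0355) and Junb by 1.32 (adjusted p = 0.0498), among 6992 genes called. Jun then turned to -1.04 and did not pass (limma adjusted p = 0.145). That library had the fewest reads, 7375270, and no read for 22.3% of the genes tested in testis, against 0.668% to 7.89% in the other 5. Its 6 erythroid markers summed to 486 RPM, against 6.40 to 73.1 RPM in the other testis libraries, and the part of these in the result was not tested. KO replicates 2 and 3 against the Het library, all in set 2 and chosen after the data were seen, gave Jun 1.03 (limma adjusted p = 0.505) and Dnajb1 0.30 (adjusted p = 0.591), neither past the threshold.

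In round spermatids none of the 5 members that entered the fit (Fos, Jun, Egr1, Atf3 and Dnajb1) passed between KO and WT by limma, nor did any of 18075 genes (0.0%). At an unadjusted p under 0.05 there were 3813 genes and no member; the count by voom was 0. KO minus WT was 1.20 for Fos (SE 0.61, limma adjusted p = 0.283, above both WT libraries in 2 of 3 KO libraries) and 0.77 for Egr1 (SE 0.42, adjusted p = 0.310, 3 of 3). For Dnajb1 it was -0.36 (SE 0.17, limma adjusted p = 0.261, below WT in 3 of 3), with a median of all genes at 0.03. Groups did not overlap for Egr1, as for 16.6% of genes in that direction, and for Dnajb1, as for 19.4%. Leaving out KO replicate 1 brought Fos to 1.82 (limma adjusted p = 0.0112) and Dnajb1 to -0.44 (adjusted p = 0.0229), past the threshold with 5514 genes in all. With the set as a covariate Fos was at -0.04 and did not pass.

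Het round spermatids, all of set 2, showed differences from WT of the same sign. Jun was at 1.20 (SE 0.53, limma adjusted p = 0.195), Egr1 at 1.20 (SE 0.46, adjusted p = 0.146) and Dnajb1 at -0.65 (SE 0.19, adjusted p = 0.0867), each without overlap between the 2 Het and 2 WT libraries. None of 5 members and 0.0% of genes passed; without adjustment p was under 0.05 for these 3 members and 4542 genes, and the count by voom was 0. Fos, Jun and Egr1 were higher without overlap, as were 40.6% of genes, and Dnajb1 lower, as were 23.2%, so these counts are near those of all genes. The median of all genes was 0.23, and relative to it Jun and Egr1 each stood at 0.97 and Dnajb1 at -0.88. KO minus WT and Het minus WT share the WT libraries.

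Sorted cells were then set beside intact tissue within each genotype, in one limma fit of all 13 libraries that 7 members entered. In WT, where every library is of set 1, none of the 7 passed, against 11.5% of 20085 genes (2305), and none had an unadjusted p under 0.05 or was called by voom. Dnajb1 differed by -0.08 (SE 0.35, limma adjusted p = 0.943), and no member was without overlap in either direction, against 38.6% of genes higher and 23.7% lower. The 2 WT libraries a side thus held no immediate-early member above 1.57 RPM in tissue or 1.05 RPM in sorted cells. Another immediate-early gene, Fosl1, had no read in WT testis and 3.04 and 6.77 RPM in WT round spermatids, and did pass. A difference in the members may still have gone undetected with 2 libraries a side, since the SE was 1.06 for Fos and 0.54 for Fosl1.

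In KO the 5 members Fos, Jun, Junb, Egr1 and Ier2 had lower means in round spermatids than in testis, and Dnajb1 a higher one. By limma 0 of 7 passed, against 2.36% of genes (474 genes, or 987 with the replicate number as a block; 0.936% of genes were called higher and 1.42% lower), and without adjustment p was under 0.05 for 3 members, with a count of 0 by voom. Round spermatids minus testis was -1.77 for Egr1 (SE 0.58, limma adjusted p = 0.115), -1.01 for Ier2 (SE 0.44, adjusted p = 0.208), -0.86 for Junb (SE 0.33, adjusted p = 0.165), -0.87 for Jun (SE 0.78, adjusted p = 0.541) and -0.53 for Fos (SE 0.87, adjusted p = 0.751). Junb and Egr1 were lower without overlap, as were 11.1% of genes, and none was higher without overlap, against 10.4%. Relative to the median of all genes, at -0.14, Egr1 stood at -1.62 and Dnajb1, at 0.45 (SE 0.28, limma adjusted p = 0.375), at 0.60. The sets gave opposite signs for some members. Within set 2 limma called Jun lower at -1.68 (adjusted p = 0.00470), Fos higher at 1.26 (adjusted p = 0.0303) and Dnajb1 higher at 0.75 (adjusted p = 0.000396), where 8753 genes passed. Within set 1, with 1 KO library a side, Jun was at 0.74 and Dnajb1 at -0.13, and Fos and Egr1 were not fitted. With the set as a covariate, which again rests on KO replicate 1 alone, limma called Fos (-4.11, adjusted p = 0.000239) and Egr1 (-3.57, adjusted p = 0.000492) lower, among 5565 genes called. Without testis KO replicate 1, Jun (-1.95), Ier2 (-1.19) and Egr1 (-1.02) were lower and Dnajb1 (0.83) higher past the limma threshold, and Fos turned to 0.64. Leaving out that library also raised the number of all genes called in the testis fit. The share of all genes called without it here is not reported, so these calls are not particular to the members.

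The Het comparison has 1 testis library, whose spread is assumed to be that of the other groups. Dnajb1 was at 0.84 (SE 0.42, limma adjusted p = 0.432), and 0 of 7 members and 0.0% of genes passed, with no member and 2443 genes at an unadjusted p under 0.05. Within set 2 the difference was the same 0.84, and with the set as a covariate it was -0.038. No Het library is in set 1, so that covariate takes its set effect from the KO libraries alone. The value of -0.038 is thus an extrapolation, and whether the set accounts for the Het difference was not tested. Whether the difference between sorted cells and tissue itself differed between KO and WT was tested as an interaction. None of 7 members passed by limma, against 2.13% of genes (428; 1.84% lower), none had a p under 0.05 before adjustment, and the count by voom was 0 members. The interaction was -1.64 for Egr1 (SE 0.92, limma adjusted p = 0.401) and 0.54 for Dnajb1 (SE 0.45, adjusted p = 0.586), against a median of -0.48. Dnajb1 reached 0.91 (adjusted p = 0.0121) without testis KO replicate 1 by limma, and -0.05 with the set as a covariate. The shares of all genes called in these alternatives are not reported here, so calls in them are not read as particular to the members. Egr1 reached -3.44 with the set as a covariate, past the threshold (limma adjusted p = 0.00275), and was at -0.89 without testis KO replicate 1.

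The regulators that act on these genes were themselves present. In WT, limma called 4 of 27 tested regulators higher in round spermatids than in testis, against 9.09% of all genes, and 1 lower, against 2.39%. Srf, the serum response factor, was at 9.22 and 5.83 RPM in WT testis and 31.6 and 39.8 RPM in WT round spermatids, a difference of 2.13 (adjusted p = 0.00482). Atf2, a bZIP factor activated by stress kinases, was at 26.4 and 36.0 RPM and at 194 and 191 RPM (2.61, limma adjusted p = 0.000478). Hsf2, a heat-shock factor expressed in the testis, was at 8.08 and 9.25 RPM and at 65.5 and 49.7 RPM (2.59, limma adjusted p = 0.00479), Atf1 differed by 1.20 and Ddit3 by -1.65. Hsf1, the main inducer of Hspa1a and Hspa1b, was at 8.24 to 79.5 RPM in testis and 23.7 to 47.0 RPM in round spermatids and did not pass. Of the regulators named, Srf and Atf2 follow the naming rule, and the others were chosen after their values were seen. With centred libraries Atf2 was the one regulator called higher, Ddit3 remaining lower, and without testis KO replicate 1 the calls were 11 higher and 1 lower. In KO none of the 27 passed, Mapk10, which encodes the stress kinase JNK3, included, although Mapk10 was called higher with quantile-normalized and with centred libraries, and 3 were higher and 8 lower without testis KO replicate 1. The shares of all genes called without that library are not reported here, so its counts are not read as particular to regulators. In the interaction Atf2 passed at -2.01 (limma adjusted p = 0.0228).

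Other immediate-early genes, 51 of them in the table, had a median gene at 1.81 RPM in testis and 0.999 RPM in round spermatids, against 0.778 and 0.369 RPM for the 7 immediate-early members. Few were abundant: 7 of the 51 had a median of at least 10 RPM in testis and 9 in round spermatids. Crem, which encodes the main cyclic AMP-responsive factor of spermatids, was at 324 to 546 RPM in testis and 659 to 909 RPM in round spermatids, and in KO it rose by 1.06 in sorted cells against tissue (SE 0.18, limma adjusted p = 0.0214), 1 of 41 called higher (0.936% of all genes) and 0 lower (1.42%). None was called with centred libraries or without round spermatid KO replicate 1, and 4 were called higher and 16 lower without testis KO replicate 1. In WT 6 of 41 were called higher, against 9.09% of all genes, and 0 lower, against 2.39%, by limma: Klf4 (4.29), Nr4a1 (2.54), Fosl1 (2.49), Klf2 (2.37), Btg1 (1.90) and Arc (1.20). That count was 3 with quantile-normalized libraries (Btg1, Fosl1 and Klf4), 0 with centred libraries and 9 without testis KO replicate 1. For the counts with a library left out, the shares of all genes are not reported here, so they are not read as particular to this list. The list's median was 0.00 against 0.20 over all genes in WT, and -0.70 against -0.14 in KO.

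Between genotypes none of these genes passed by limma in either cell type, and KO minus WT medians were 1.22 in testis (41 genes, all genes 0.63) and 0.36 in round spermatids (33 genes, all genes 0.03). In round spermatids the 4 smallest p-values were those of Klf4, a pluripotency and differentiation factor, Per1, a clock gene, Id1, an inhibitor of bHLH factors, and Klf6. Klf4 was at 48.2 and 56.5 RPM in WT and 13.9 to 20.5 RPM in the other 5 libraries, KO replicate 1 included, and KO minus WT was -1.52 (limma adjusted p = 0.121). The WT libraries held 13.8 and 12.8 RPM of Per1, the Het libraries 35.6 and 57.5 RPM and the KO libraries 20.3, 54.8 and 48.3 RPM (1.44, limma adjusted p = 0.135). Without KO replicate 1 limma called 10 of 33 higher, Per1, Id1 and Klf6 among them, and 2 lower, Klf4 and Tsc22d1, where 5514 of 17921 genes passed. In Het against WT, Klf4 was called lower with quantile-normalized and with centred libraries. In testis, leaving out KO replicate 1 gave 28 of 41 higher and 1, Crem, lower, where 11976 of 18378 genes passed.

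**Figure D4:**
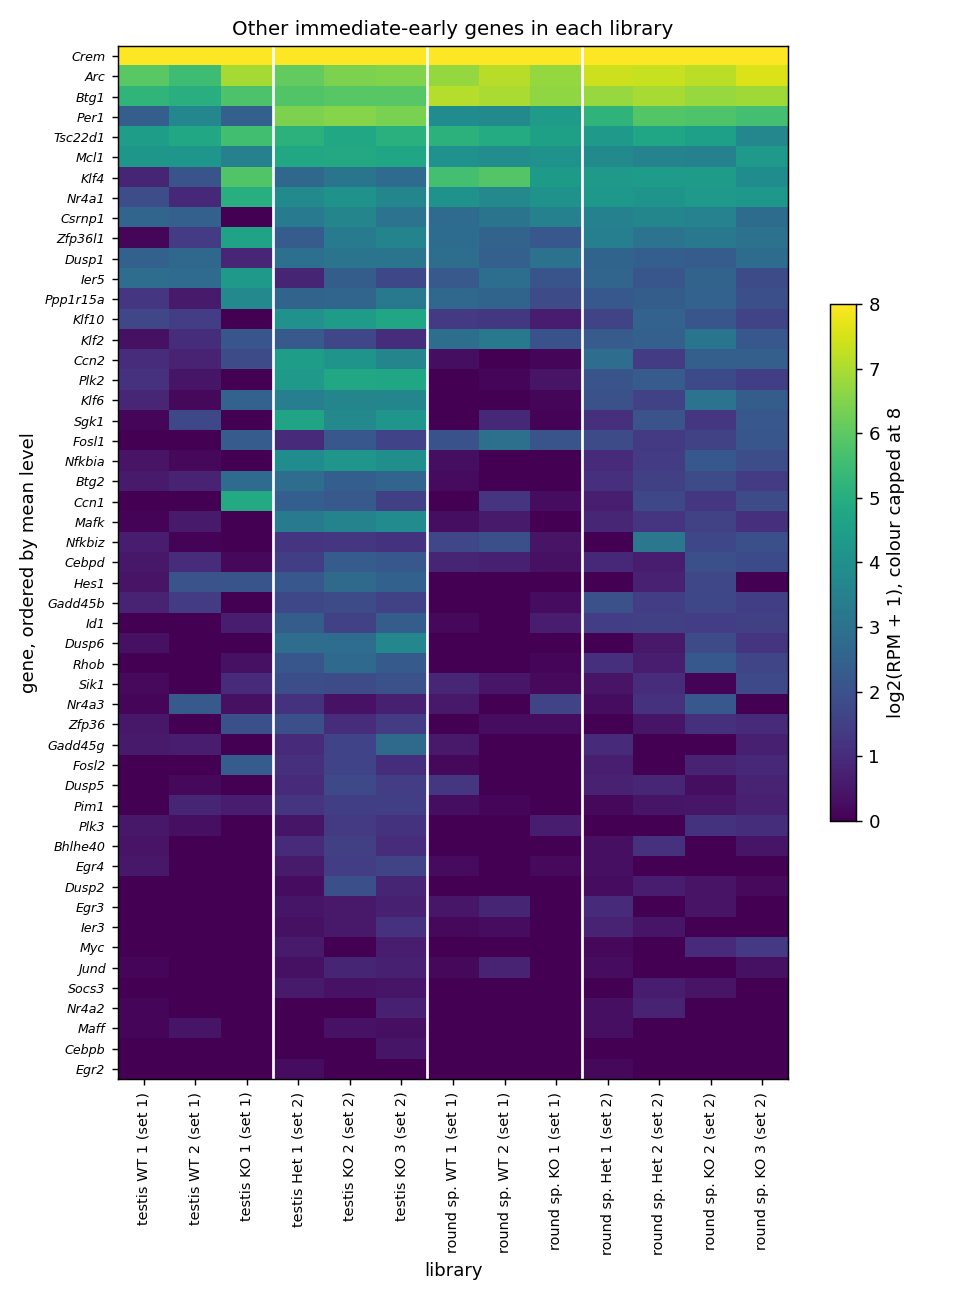
Log2(RPM + 1) as colour, capped at 8, for 51 other immediate-early genes (rows, ordered by mean) in the 13 libraries (columns, grouped by cell type and set, parted by white lines). Crem is bright throughout at 324 RPM or more, most rows are dark, and testis KO replicate 1 has bright cells for Klf4 and Nr4a1 beside dark cells for Klf10 and Plk2, which have no read there.

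Chaperones of the general list had medians of 0.75 in testis (34 genes, all genes 0.63) and 0.52 in round spermatids (33 genes, all genes 0.03) for KO minus WT, with 0 called in either by limma. The 4 smallest p-values in round spermatids were those of Stip1, the HSP70-HSP90 organizing protein (0.84, limma adjusted p = 0.121), Tcp1 (0.56, adjusted p = 0.124) and Cct3 (0.54, adjusted p = 0.130), subunits of the chaperonin TRiC, and Hspa9, the mitochondrial HSP70 (0.86, adjusted p = 0.127). Without KO replicate 1 limma called 22 of 33 higher and 1 lower in round spermatids, and 23 of 34 higher and 3 lower in testis, where 5514 of 17921 and 11976 of 18378 genes passed. Hspa8 and Hspa5, chosen after their values were seen, went with the sets in the direction opposite to Dnajb1. Hspa8 was at 29.4 to 40.3 RPM in testis samples of set 1 and 362 to 452 RPM in set 2, and at 39.8 to 51.8 and 102 to 147 RPM in sorted samples. Hspa5 was at 116 to 161 and 877 to 974 RPM in testis, and at 187 to 273 and 854 to 960 RPM in sorted samples. Dnajb3 and Dnajb13, both of germ cells, lay on the side of Dnajb1: in testis Dnajb3 was at 445 to 657 RPM in set 1 and 177 to 225 RPM in set 2, and Dnajb13 at 307 to 334 and 136 to 141 RPM.

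In sorted cells against tissue, limma called 2 of 34 general chaperones higher in WT, against 9.09% of all genes, Dnajb4 (1.75) among them, and in KO Dnajb4 higher (1.28, adjusted p = 0.0232) and Hspe1, the mitochondrial HSP10, lower (-1.60, adjusted p = 0.0328). Dnajb4, the closest relative of Dnajb1, was at 29.9 to 71.7 RPM in testis and 108 to 197 RPM in round spermatids, without overlap, and it was called higher with quantile-normalized and centred libraries too in KO, but was not called with centred libraries in WT. Without testis KO replicate 1 the general chaperones gave 11 higher and 6 lower in WT and 3 higher and 11 lower in KO, and without round spermatid KO replicate 1 none was called in KO. The list of 20 germ cell chaperones is a chosen grouping that includes genes such as Bag5, Bag6 and Tcp10b. Whether each is a chaperone confined to germ cells was not tested. Of the 20 listed genes limma called 4 higher in WT, Hspa2 (1.78), Hspa4l (1.77), Bag6 (1.69) and Bag5 (1.27), and 3 in KO, Cct6b (0.96), Tcp10b (0.93) and Bag5 (0.90), with 0 lower. Over all genes 9.09% were called higher in WT and 0.936% in KO. The WT count was 2 with quantile-normalized and with centred libraries, and 11 higher and 3 lower without testis KO replicate 1. The KO count was 1 with quantile-normalized libraries, 4 with centred libraries, 10 without testis KO replicate 1 and 0 without round spermatid KO replicate 1. For both chaperone lists, the shares of all genes called with a library left out are not reported here. Those counts are therefore not read as particular to chaperones. Cct6b, the testis form of a TRiC subunit, passed in the interaction as well (1.23, limma adjusted p = 0.0499).

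Members were also compared with all 15335 genes searched for likeness of pattern, by Pearson's r on log2(RPM + 1) over the 13 libraries, which share cell type, set and depth; these values are descriptions. Dnajb1 was most like Smco2 (0.988), Mzt2 (0.988) and Snx32 (0.984). Jun was most like Gpc1 (0.981), Irf9 (0.962) and Sdf2 (0.959), and Ier2 most like Xlr3a (0.969), Pcyox1 (0.964) and Adcy7 (0.962). Fos was nearest to Ahnak2 (0.927), Egr1 to Fam189b (0.951), Junb to Chst14 (0.944) and Atf3 to Nfkbiz (0.761). Among members the pairs Junb and Ier2 (0.85), Fos and Egr1 (0.81) and Junb and Egr1 (0.79) had the highest r, Jun and Dnajb1 the lowest (-0.86), and Fos and Jun, whose products pair in AP-1, had -0.23.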

How the data were processed

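RNA-seq values were analysed for 13 libraries, grouped by the cell type and Wfdc15a genotype in the labels. The authors deposited 1 table of log2 RPM values per gene. Per the submitters' processing notes, FastQC 0.11.8, Trim Galore 0.6.6, HISAT2 2.1.0 and the mm10 build were used; for the read counter and annotation, these sources name none. The deposited values gave whole reads for 99.7% to 99.995% of values per library, within 0.01 read, and a gene with no read carries the value of 0.9 read, which was set to 0. Multimapped reads and strand were handled in ways the sources do not state.

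The main test was limma 3.58.1 in R 4.3.3 (lmFit, eBayes with trend, two-sided) on log2(RPM + 1), which understates changes of low genes. It used genes with at least 1 RPM in 2 libraries of the fit and Benjamini-Hochberg adjustment over all of them. Genotypes were compared within a cell type in a fit of its 3 genotypes, and cell types in a fit of all 13 libraries. The code was tested on simulated data. Alternatives were other pseudocounts, filters and scalings, voom on the recovered reads, the library set, the replicate number as a block, and each library left out. The same-numbered KO libraries of testis and round spermatids deviated together (r = 0.504, 0.283 and 0.403 across genes). In both cell types KO replicate 1 is of set 1 and replicates 2 and 3 are of set 2. These r values therefore cannot tell a shared animal from a shared set, and differently numbered libraries were not compared. The labels do not state a pairing, and the replicate number served as a block in alternatives only. The same-numbered WT libraries, all of set 1, did not deviate together (r = -0.0233).

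The members and the gene lists (other immediate-early genes, upstream regulators, general and germ cell chaperones, oxidative and integrated stress, cell type markers) were chosen with earlier results of these data known. All members are named. Of each other list, the rule names the 4 genes with the smallest p in KO round spermatids against testis and, for immediate-early genes and general chaperones, also in KO against WT round spermatids. Promoters are from RefSeq. Individual values of some listed genes are not reported here.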

Additional observations from a re-analysis of the deposited data

How the results depend on the processing

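Of 314 alternative values of the 22 fitted differences of members given above, 279 kept their direction and side of the threshold, 22 newly passed it and 13 changed sign; none had passed at first, so no call could be lost. The replicate block called 0 members in each of the 7 comparisons (in testis Fos was then at 2.25 and Jun at 0.52), and changed no other call on a member. Between genotypes the block ties WT and KO libraries by their number, a pairing that the labels do not state. KO replicate 3 has no partner there and adds nothing to KO minus WT. With the library set as a covariate, limma called 4 members in KO against WT testis and 2 in each of the Het, the KO and the interaction contrasts of round spermatids with testis, Egr1 among them in the last 2. Signs changed there for Jun in testis (-1.04), Fos in KO against WT round spermatids (-0.041), Dnajb1 in Het (-0.038), KO (-0.13) and the interaction (-0.047), and Jun in KO round spermatids against testis (0.74). Within set 1 the last 3 (Dnajb1 in KO, Dnajb1 in the interaction and Jun in KO) were -0.13, -0.047 and 0.74 again. These are the same estimates by construction, because both settings compare KO replicate 1 alone with the WT libraries or across cell types. They are no second check, although the totals above count them separately. Within set 2, 3 members were called in KO, and Fos in KO turned to 1.26. For the Het and interaction contrasts, the shares of all genes called with these settings are not reported here. Their counts of members are therefore not read as particular to the members. With 1 library left out, the counts of members called ran from 0 to 5 in KO against WT testis, 0 to 2 in KO against WT round spermatids, 0 to 4 in KO round spermatids against testis and 0 to 1 in the interaction, and were 0 throughout in the other 3 comparisons. Fos in KO round spermatids against testis then ran from -1.29 to 0.64, being 0.64 without testis KO replicate 1 and 0.089 without round spermatid KO replicate 1, and Dnajb1 in WT ran from -0.17 to 0.0020, the latter without testis WT replicate 2. Where a cause is not named, the cause was not tested. Comparisons within a set were not run where a side had no library. Levels under 3 reads limit what can be said of Fosb, Hspa1a and Hspa1b, which entered no fit.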

Other observations

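The library with the most Fos and Egr1, testis KO replicate 1, held a mixed set of other immediate-early genes, chosen here after their values were seen. Klf4 was at 56.4 RPM in it, Nr4a1 at 31.6 RPM, Ccn1 at 28.5 RPM, Zfp36l1 at 23.6 RPM, Ier5 at 18.8 RPM and Ppp1r15a at 12.5 RPM. Csrnp1, Klf10, Nfkbia, Sgk1, Plk2 and Dusp6 had no read there, as had 24 of the 51 genes, against 1 to 19 in the other testis libraries. Over all 30479 genes, 15044 had no read in it, against 7892 to 10364 in the other testis libraries, so the 24 are near the share of all genes. It was the highest of the 6 testis libraries for 10 of the 41 genes tested, against 16.2% of all 18570 genes, and KO replicate 2 was the highest for 15 of the 41, against 17.1%. Cdkn1a, an inhibitor of the cell cycle that p53 induces, was at 29.3 RPM in it and at 1.58 to 9.50 RPM in the other testis libraries.

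Of 20 genes of oxidative and integrated stress, Txnrd1, Cdkn1a, Ddit4 and Gclc among them, limma called 0 of 18 tested in round spermatids against testis in either WT or KO.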
